A study of Mus musculus with 6 samples.

Results

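The Wnt antagonists Dkk1, Frzb, Sfrp1 and Sfrp5, the TCF/LEF transcription factor genes Lef1, Tcf7, Tcf7l1 and Tcf7l2, and the Wnt target genes Axin2 and Sp5 were followed across 3 sorted fractions of mouse embryonic stem cell (ESC) cultures. The genes were selected by symbol, and all 10 had a row in the count table of 38561 genes. The cultures came from a cross labelled 129X1/SvJ x 129S1/Sv, at passages 13 to 17, and were grown without feeder cells on gelatin with 20% serum replacement and 1000 U/ml leukemia inhibitory factor. The labels give no transgene and no drug treatment for any group. Cells were sorted by flow cytometry on 2 surface proteins, the adhesion molecule PECAM1 and the growth factor receptor PDGFRa. The fractions are called PDGFRa-only (PECAM1minPDGFRaplus in the labels), double-positive (PECAM1plusPDGFRaplus) and PECAM1-only (PECAM1plusPDGFRamin). Each had 2 libraries, made from amplified RNA of 100000 sorted events. Their labels end in Exp1 or Exp2 in every fraction, given here as replicates 1 and 2. The labels name no ESC line and leave unsaid if replicates were grown as separate cultures. Each p sets a difference against the spread between replicate libraries, estimated over all 3 fractions. That spread may be technical. The series title likens the PDGFRa-positive cells to precursors of primitive endoderm, the extraembryonic tissue that forms next to the pluripotent epiblast of the blastocyst. The sorted fractions were compared pairwise.

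In the canonical Wnt pathway, a secreted Wnt protein binds a Frizzled receptor together with an LRP5 or LRP6 coreceptor, the complex that degrades beta-catenin is disabled, and beta-catenin enters the nucleus and joins a TCF/LEF factor at DNA. Without beta-catenin, TCF/LEF factors hold their targets down together with Groucho (TLE) corepressors. TCF7L1 acts mainly as a repressor in ESCs and restrains genes of the naive pluripotent state, while LEF1 and TCF7 are known mostly as activators. DKK1 blocks the LRP5 and LRP6 coreceptors, whereas FRZB and the SFRP proteins bind Wnt ligands outside the cell. AXIN2 is a scaffold of the degradation complex whose gene is itself switched on by the pathway, so that it serves both as a readout and as a brake, and SP5 is a further transcription factor encoded by a direct target. Dkk1, Lef1 and Tcf7 are also known as targets of the pathway.

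TCF/LEF factors recognise a short DNA motif, searched here as CTTTGAT and CTTTGAA on both strands of the RefSeq promoter windows of build GRCm38.p6, each from 250 bases before to 50 bases after a start. Windows were found for 9 of the 10 genes, 14 windows in all, and not for Sfrp1. The motif was in 2 of the 14, those of Dkk1 and Sp5, against 8.65% of all 32817 windows. The match in Dkk1 began 117 bases before the RefSeq start and that in Sp5 began 104 bases before it. In the GENCODE M21 annotation Dkk1 runs from 30545863 to 30549665 on the minus strand, so its match lies within the annotated gene. The match of Sp5 lies before its annotated gene, which starts at 70474923. Dkk1 and Sp5 are printed because they held the match, with the motif in capitals, and Axin2 because its level is the least usual of the set and its window held none. A match is a description of letters and not a measured binding site.
Dkk1, chr19:30549595-30549624, minus strand, 30 bases around the match: tcctcccaaagCTTTGAAatcccatcccgg
Sp5, chr2:70474673-70474922, plus strand, 250 bases before the start: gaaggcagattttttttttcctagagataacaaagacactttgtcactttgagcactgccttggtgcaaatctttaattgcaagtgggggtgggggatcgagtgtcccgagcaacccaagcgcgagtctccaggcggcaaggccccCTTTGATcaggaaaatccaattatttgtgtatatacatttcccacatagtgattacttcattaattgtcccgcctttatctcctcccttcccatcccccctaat
Axin2, chr11:108920099-108920348, plus strand, 250 bases before the start: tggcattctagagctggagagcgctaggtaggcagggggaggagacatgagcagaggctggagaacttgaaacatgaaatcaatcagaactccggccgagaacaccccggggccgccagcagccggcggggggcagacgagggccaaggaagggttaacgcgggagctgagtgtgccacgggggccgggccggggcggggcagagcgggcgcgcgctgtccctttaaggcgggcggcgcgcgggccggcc
The windows of Axin2 and of Sp5 also differed in base composition, with 70.0% G and C in Axin2 and 45.0% in Sp5, beside a median of 52.7% over all windows.

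The libraries held between 4809661 and 7273669 counts. Levels are given as CPM, each gene's count as a share of its library's total on a fixed scale, after scaling by the trimmed mean of M-values (TMM), a factor that makes most genes equal between libraries. Each level is the mean ± SD of 2 libraries. Differences were tested with edgeR's quasi-likelihood test on all 13909 genes that passed a filter on low counts, and p was adjusted over all of them by the Benjamini-Hochberg method with a threshold of 0.05. The sort was visible in its own genes. Pecam1 had 1.54, 49.2 and 154 CPM in the PDGFRa-only, double-positive and PECAM1-only fractions, and Pdgfra had 556, 533 and 1.95 CPM. The summed level of 3 pluripotency genes (Pou5f1, Sox2, Nanog) was 58.15 to 98.5 CPM, 157 to 181 CPM and 406 to 459 CPM in the libraries of these fractions, in the same order. That of 4 primitive endoderm genes (Gata4, Gata6, Sox17, Dab2) was 3706 to 3873 CPM, 2661 to 2842 CPM and 11.9 to 15.95 CPM. The pluripotency genes differed among themselves. Pou5f1 had 76.5, 101 and 138 CPM (log2 fold change -0.86 between the outer fractions, edgeR adjusted p = 0.00138). It was not called for double-positive over PECAM1-only (0.0905) or PDGFRa-only over double-positive (0.187). Sox2 had 1.35, 29.8 and 96.7 CPM and Nanog 0.450, 38.5 and 198 CPM.

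Of the 10 genes, 8 passed the filter, and Sfrp5 and Sp5 did not. With PDGFRa-only set against PECAM1-only all 8 were called, 4 higher and 4 lower, where 59% of all tested genes were called, 30.1% higher and 28.8% lower. With double-positive set against PECAM1-only all 8 were called as well, again 4 higher and 4 lower, against 38.2% of all genes (21.8% higher, 16.4% lower). With PDGFRa-only set against double-positive 6 of the 8 were called, 2 higher and 4 lower, against 17.6% of all genes (5.94% higher, 11.7% lower); without double-positive replicate 1 the count was 3, and from the deposited RPKM values with limma it was 2. Which genes passed the filter depends partly on how high they were in 1 fraction, so these counts describe the 8 and not all 10. The 3 comparisons share libraries and are not independent of each other.

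**Figure D1:**
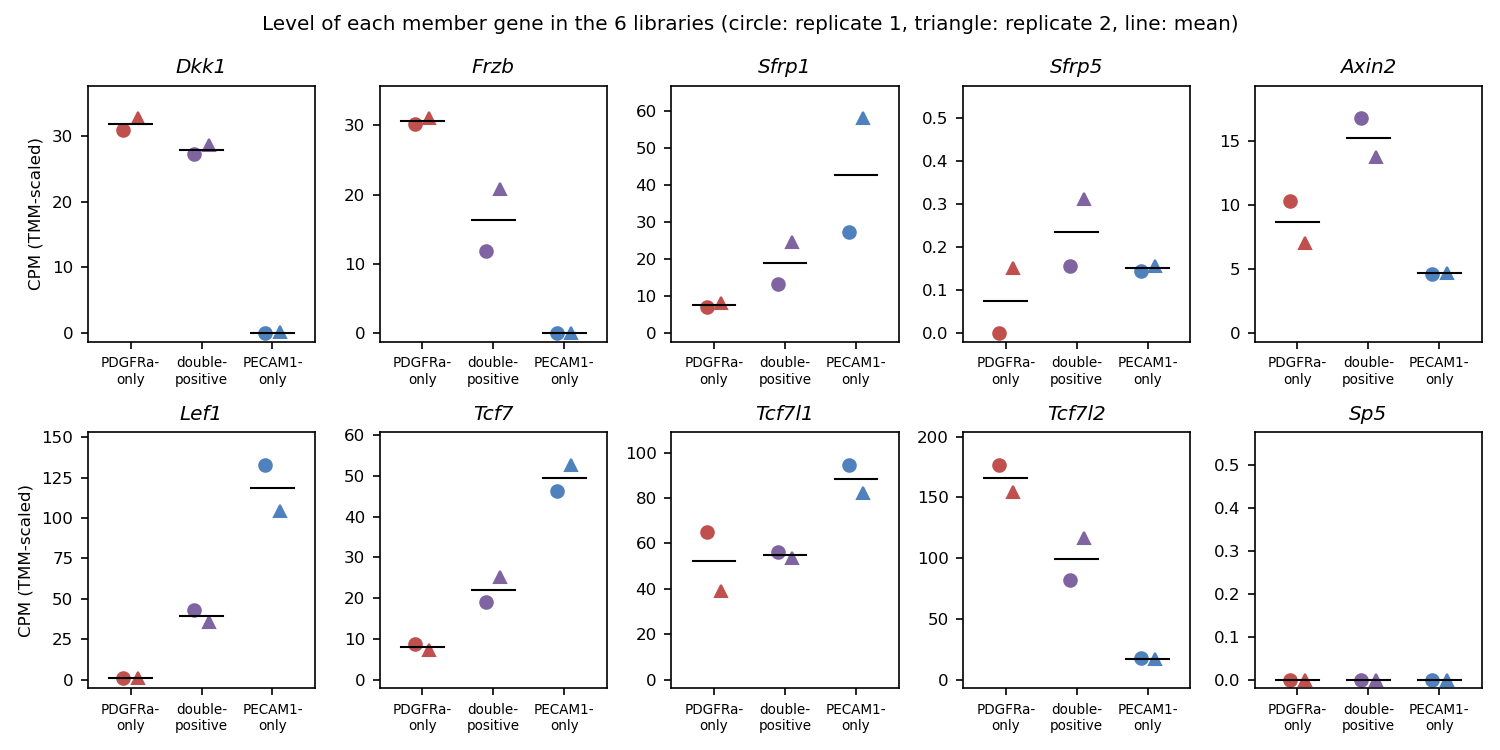
Level in CPM (vertical axes, linear, each with its own range) of the 10 genes in the PDGFRa-only, double-positive and PECAM1-only fractions; circles are replicate 1, triangles replicate 2 and lines the means of 2. Dkk1, Frzb and Tcf7l2 are lowest in the PECAM1-only fraction, Sfrp1, Lef1, Tcf7 and Tcf7l1 are highest there, Axin2 is highest in the double-positive fraction, and Sfrp5 and Sp5 are at or near 0 throughout.

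The antagonists split into 2 groups with opposite patterns. Dkk1 (ENSMUSG00000024868, GRCm38 chromosome 19, 30545863 to 30549665, minus strand) and Frzb (ENSMUSG00000027004, chromosome 2, 80411970 to 80447625, minus strand) were present in both PDGFRa-positive fractions and nearly or fully without counts in the PECAM1-only fraction. Sfrp1 (ENSMUSG00000031548, chromosome 8, 23411502 to 23449632, plus strand) was highest in the PECAM1-only fraction. In sorted bulk RNA, a lower level can mean fewer cells with the transcript or less transcript per cell, and these cannot be told apart.

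Dkk1 had 30.9 and 32.7 CPM in the PDGFRa-only libraries, 27.3 and 28.6 CPM in the double-positive libraries, and 0 and 0.156 CPM in the PECAM1-only libraries, the last being a single count. All 4 PDGFRa-positive libraries lay within a narrow band far above both PECAM1-only libraries. Against that single count, the summed counts were higher by a ratio of 425 in the PDGFRa-only fraction (exact 95% counting interval 75.7 to 16800) and of 371 in the double-positive fraction (66.2 to 14700). The fitted log2 fold changes rest on that count: they were 8.38 and 8.19 (edgeR adjusted p = 4.36e-12 and 1.75e-11), 7.51 and 7.32 without PECAM1-only replicate 1, and 10.60 and 10.40 without replicate 2. Between the PDGFRa-only and double-positive fractions the log2 fold change was 0.19 ± 0.21 (SE, adjusted p = 0.593), so the order of these 2 levels was not resolved.

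Frzb had 30.2 and 31.0 CPM in the PDGFRa-only libraries, 11.9 and 20.8 CPM in the double-positive libraries and 0 counts in both PECAM1-only libraries. The PDGFRa-only libraries were therefore at least 136-fold higher than the PECAM1-only libraries, and the double-positive libraries at least 72.4-fold higher, each against a floor of 3 counts over the fraction. Both tests passed (edgeR adjusted p = 6.13e-11 and 2.31e-09). Unlike Dkk1, Frzb was also lower in the double-positive than in the PDGFRa-only fraction, at 53.4% of its level (log2 fold change 0.91 ± 0.25 for PDGFRa-only over double-positive, adjusted p = 0.0177). That call depended on double-positive replicate 1: without it the log2 fold change was 0.56 (adjusted p = 0.311). Whether Frzb and Dkk1 differ from each other in this respect was not tested.

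Sfrp1 had 7.16 and 8.13 CPM in the PDGFRa-only libraries, 13.2 and 24.65 CPM in the double-positive libraries, and 27.3 and 58.0 CPM in the PECAM1-only libraries. The fractions did not overlap, but PECAM1-only replicate 2 was far above replicate 1, and the double-positive libraries were spread in the same way. Sfrp1 was 5.58-fold higher in the PECAM1-only than in the PDGFRa-only fraction (log2 fold change -2.46 ± 0.36 for PDGFRa-only over PECAM1-only, edgeR adjusted p = 2.19e-05). This was -1.82 without PECAM1-only replicate 2, and it fell short of the threshold without PDGFRa-only replicate 1 (adjusted p = 0.0625) or 2 (0.0529). The steps on either side of the double-positive fraction were less secure. Against PECAM1-only the log2 fold change was -1.17 ± 0.32 (adjusted p = 0.00873), a call lost without double-positive replicate 1 (adjusted p = 0.0851), PECAM1-only replicate 2 (-0.51, adjusted p = 0.252), or PDGFRa-only replicate 1 (0.167) or 2 (0.148), and in a fit of the 2 fractions alone (0.0795). PDGFRa-only over double-positive gave -1.29 ± 0.37 (adjusted p = 0.0261), lost without either PDGFRa-only library (adjusted p = 0.416 and 0.328) and without double-positive replicate 2 (0.209).

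Sfrp5 (ENSMUSG00000018822, chromosome 19, 42197971 to 42202252, minus strand), another secreted relative of the Frizzled receptors, had 6 counts over all 6 libraries. No library had more than 2, so each was under the floor of 3 counts, which stands for 0.435 to 0.672 CPM depending on the library. A difference between fractions was not detectable at this depth. Floors and counting intervals cover counting error only, because reads of amplified RNA lack molecular tags and several can stem from 1 molecule.

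Among the other secreted antagonists of the pathway, 4 of 10 listed genes were tested. Of these, 3 were lower in the PDGFRa-only than in the PECAM1-only fraction and none was higher, where 28.8% of all tested genes were lower and 30.1% higher (median log2 fold change -3.60, all genes 0.01). Sfrp2, a relative of Sfrp1, had 0.224 and 0.452 CPM in the PDGFRa-only libraries, 3.295 and 6.085 CPM in the double-positive and 9.29 and 11.6 CPM in the PECAM1-only libraries (log2 fold change -4.78 ± 0.54, edgeR adjusted p = 1.67e-07; -5.41 without PDGFRa-only replicate 2). Sfrp4 had a log2 fold change of -2.42 ± 0.52 (adjusted p = 0.000436; -3.37 without PDGFRa-only replicate 2). Notum, an enzyme that strips the lipid from Wnt proteins, had a single PDGFRa-only count, from replicate 2, beside 58 PECAM1-only counts, so that the PECAM1-only level was 48.5 times as high (counting interval 8.37 to 1950). Dkk3, a family member not known as a typical Wnt blocker, had 3.90, 3.83 and 3.75 CPM in the PDGFRa-only, double-positive and PECAM1-only fractions (adjusted p = 0.940 between the first and the last). Cer1, which is on this list and also among the anterior visceral endoderm markers, had 1 count over all libraries. Whether its protein acts on Wnt in mouse cells was not examined.

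Levels per kilobase of exon set different genes side by side only roughly, because the exon annotation used for the counting is not given. On this scale Dkk1 and Frzb were at 13.1 and 9.46 CPM per kilobase in the PDGFRa-only fraction and at 11.5 and 5.05 in the double-positive fraction. Sfrp1 and Sfrp2 were at 9.755 and 4.845 CPM per kilobase in the PECAM1-only fraction, at 4.33 and 2.18 in the double-positive fraction, and at 1.75 and 0.157 in the PDGFRa-only fraction. The double-positive fraction thus held transcripts of all 4 antagonists at once. Fibroblasts are another known source of such antagonists. Of 7 fibroblast markers, 1 passed the filter (Col1a2). Over all libraries Col1a1 had 28 counts, Col3a1 13, Thy1 9, Postn 4, Dcn 3 and Lum 1. The summed level was 2.015 to 5.12 CPM, 3.61 to 6.085 CPM and 1.88 to 2.18 CPM in the PDGFRa-only, double-positive and PECAM1-only libraries. Col1a2 alone had 3.01, 2.74 and 0.145 CPM in these fractions (log2 fold change 4.23 between the outer fractions, edgeR adjusted p = 0.000294), and its part in the antagonist levels was not tested. Some markers of other lists also moved with the genes described. All 3 neural markers (Sox1, Pax6, Tubb3) were tested and called lower in the PDGFRa-only than in the PECAM1-only fraction (log2 fold changes -4.15, -3.91 and -2.56), with a summed level of 5.12 to 5.15, 15.85 to 23.1 and 45.7 to 47.1 CPM, the same order of fractions as Sfrp1, Sfrp2, Lef1 and Tcf7. Of 5 anterior visceral endoderm markers 3 were tested, with a summed level of 15.1 to 19.0, 37.0 to 45.8 and 96.8 to 125 CPM. This list was mixed. Otx2 had 0.4885, 27.3 and 98.2 CPM and Lefty1 0.527, 3.36 and 5.19 CPM, in the same order of fractions. Hhex went the other way, at 14.9, 10.3 and 7.315 CPM (log2 fold change 1.00 for PDGFRa-only over PECAM1-only, edgeR adjusted p = 0.00467). So did Lhx1, which was not tested, at 1.16, 0.391 and 0.151 CPM. Of 4 endothelial and blood markers, Ptprc and Emcn had 0 counts and only Cdh5 was tested. Cdh5 had 88.6, 54.2 and 0.0782 CPM in the PDGFRa-only, double-positive and PECAM1-only fractions, lowest in the last like Dkk1 and Frzb. It was not called for PDGFRa-only over double-positive (log2 fold change 0.70, edgeR adjusted p = 0.0684). The part of these markers in the results was not tested.

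The TCF/LEF genes changed places between the fractions. Lef1 and Tcf7 were highest in the PECAM1-only fraction, Tcf7l2 was highest in the PDGFRa-only fraction, and Tcf7l1 varied least. The double-positive fraction lay between the other fractions for Lef1, Tcf7 and Tcf7l2.

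Lef1 (ENSMUSG00000027985, chromosome 3, 131110471 to 131224356, plus strand) had 0.896 and 1.21 CPM in the PDGFRa-only libraries, 43.3 and 35.9 CPM in the double-positive libraries and 133 and 105 CPM in the PECAM1-only libraries. Each fraction lay clear of the others. The low end rests on 12 counts in the PDGFRa-only fraction, against 1585 in the PECAM1-only fraction. Lef1 was 113-fold higher in the PECAM1-only than in the PDGFRa-only fraction (log2 fold change -6.76 ± 0.30 for PDGFRa-only over PECAM1-only, edgeR adjusted p = 8.08e-14). The larger step lay between the PDGFRa-only and double-positive fractions (-5.17 ± 0.31, adjusted p = 3.91e-10), and the double-positive fraction held 33.3% of the PECAM1-only level (-1.585 ± 0.19, adjusted p = 6.88e-07). Gm43352, an antisense transcript on the opposite strand, shares 13.7% of the exon bases of Lef1 in the annotation. It has no row of its own in the count table. The strand setting of the counting is not given, so reads of the 2 may not be told apart there.

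Tcf7 (ENSMUSG00000000782, chromosome 11, 52252371 to 52283014, minus strand) had 8.73 and 7.23 CPM, 19.0 and 25.1 CPM, and 46.2 and 52.7 CPM in the PDGFRa-only, double-positive and PECAM1-only libraries. It followed the order of Lef1 over a much smaller range, with no overlap between fractions. Tcf7 was 6.19-fold higher in the PECAM1-only than in the PDGFRa-only fraction (log2 fold change -2.64 ± 0.24, edgeR adjusted p = 4.68e-09). Its 2 steps were of similar size, -1.48 ± 0.24 for PDGFRa-only over double-positive (adjusted p = 0.000201) and -1.16 ± 0.21 for double-positive over PECAM1-only (adjusted p = 0.000128).

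Tcf7l2 (ENSMUSG00000024985, chromosome 19, 55741820 to 55933654, plus strand) went the other way. It had 177 and 154 CPM in the PDGFRa-only libraries, 81.9 and 117 CPM in the double-positive libraries and 17.6 and 17.0 CPM in the PECAM1-only libraries, again without overlap. The level was 9.57-fold higher in the PDGFRa-only than in the PECAM1-only fraction (log2 fold change 3.255 ± 0.20, edgeR adjusted p = 1.75e-11) and 574.9% of the PECAM1-only level in the double-positive fraction (2.52 ± 0.20, adjusted p = 1.97e-09). PDGFRa-only over double-positive gave 0.73 ± 0.18 (adjusted p = 0.00655), or 0.49 without double-positive replicate 1 (adjusted p = 0.196).

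Tcf7l1 (ENSMUSG00000055799, chromosome 6, 72626378 to 72789254, minus strand) had 65.15 and 39.0 CPM in the PDGFRa-only libraries, 56.0 and 53.5 CPM in the double-positive libraries and 94.65 and 82.25 CPM in the PECAM1-only libraries. Both PECAM1-only libraries were above the other 4, and the PDGFRa-only libraries lay on either side of the double-positive ones. The gene was 1.70-fold higher in the PECAM1-only than in the PDGFRa-only fraction (log2 fold change -0.78 ± 0.20, edgeR adjusted p = 0.00260) and 1.615-fold higher than in the double-positive fraction (-0.69 ± 0.20, adjusted p = 0.00966). The first call failed with PDGFRa-only replicate 2 left out (-0.44, adjusted p = 0.0511), the second without PECAM1-only replicate 1 (-0.56, adjusted p = 0.117) or double-positive replicate 2 (0.0614). PDGFRa-only over double-positive gave -0.09 ± 0.21 (adjusted p = 0.819) and took the other sign, at 0.25, without PDGFRa-only replicate 2.

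**Figure D2:**
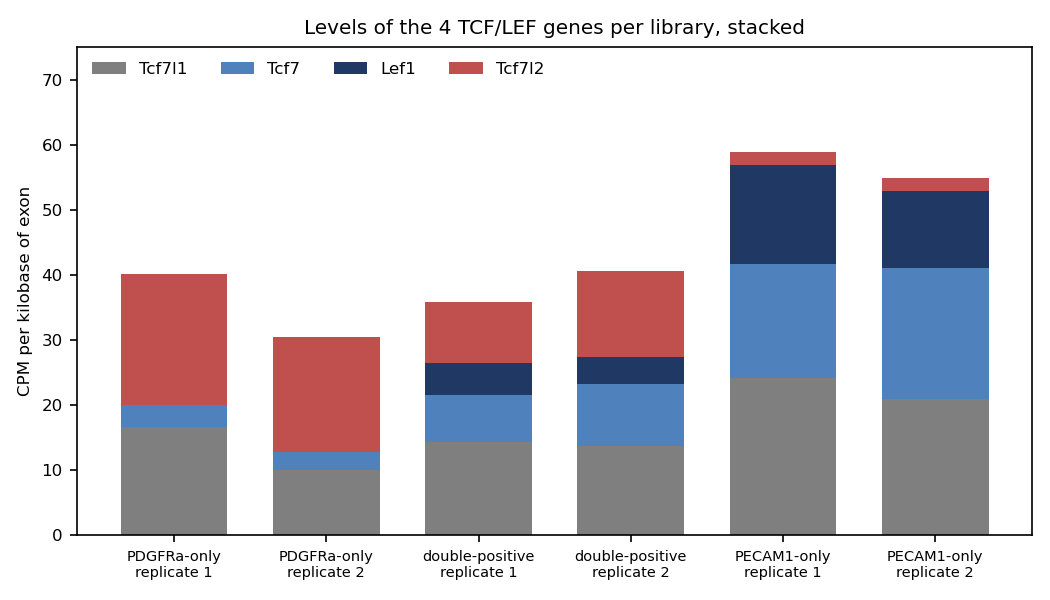
Stacked levels of Tcf7l1, Tcf7, Lef1 and Tcf7l2 in CPM per kilobase of exon (vertical axis, linear from 0) in each of the 6 libraries (horizontal axis). The Tcf7l2 segment shrinks from 20.15 and 17.6 in the PDGFRa-only libraries to 2.00 and 1.94 in the PECAM1-only libraries, the Lef1 segment is too thin to see in the PDGFRa-only libraries, and the Tcf7l1 segment is present in all.

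Per kilobase of exon, the 4 TCF/LEF genes summed to 35.3 ± 6.91, 38.2 ± 3.43 and 56.9 ± 2.80 CPM in the PDGFRa-only, double-positive and PECAM1-only fractions. Tcf7l1 held a like share of that sum in every fraction, 37.0% ± 6.10, 36.7% ± 4.48 and 39.6% ± 1.98 in the same order. Tcf7l2 made up 54.0% ± 5.41, 29.5% ± 4.76 and 3.47% ± 0.0970. The share of Tcf7 was 8.67% ± 0.552, 21.9% ± 2.36 and 33.2% ± 4.73, and that of Lef1 was 0.352% ± 0.140, 11.9% ± 2.63 and 23.7% ± 2.85 (SD, n = 2 throughout). The shares differed in the deposited RPKM values, where Tcf7l1 was the leading gene in all fractions, with 54.8%, 57.1% and 57.5%, and Tcf7l2 had 35.6%, 17.5% and 1.90%. The order of the fractions for Lef1, Tcf7 and Tcf7l2 was the same on both scales.

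Axin2 (ENSMUSG00000000142, chromosome 11, 108920349 to 108950783, plus strand) was the one gene of the 8 whose highest level was in the double-positive fraction. It had 10.3 and 7.08 CPM in the PDGFRa-only libraries, 16.8 and 13.7 CPM in the double-positive libraries and 4.65 and 4.69 CPM in the PECAM1-only libraries. Both double-positive libraries were above the other 4, and both PECAM1-only libraries were below. The level in the double-positive fraction was 326.9% of that in the PECAM1-only fraction (log2 fold change 1.705 ± 0.29, edgeR adjusted p = 7.07e-05), and this call held in all 16 alternatives. It was 1.76-fold that in the PDGFRa-only fraction (-0.84 ± 0.27 for PDGFRa-only over double-positive, adjusted p = 0.0397), close to the threshold. Leaving out any library other than PDGFRa-only replicate 1 took this second call away, at adjusted p of 0.206 (PDGFRa-only replicate 2), 0.0516 and 0.0510 (PECAM1-only replicates 1 and 2), 0.297 and 0.0779 (double-positive replicates 1 and 2), and so did DESeq2 (0.154), a fit of the 2 fractions alone (0.0524) and the deposited RPKM values (0.0535). PDGFRa-only over PECAM1-only gave 0.87 ± 0.31 (adjusted p = 0.0200), a call that failed when PDGFRa-only replicate 1 (0.136) was left out, or PECAM1-only replicate 1 (0.0774) or 2 (0.0694), with DESeq2 (0.0689), and with upper-quartile (0.0705) or library-size scaling (0.110).

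Few genes passed the threshold in both comparisons with the double-positive fraction higher. How many had their highest level there without both calls was not counted. Of 13909 tested genes, 6 (0.0431%) were called higher in the double-positive fraction than in both others, and Axin2 was among them, while 1 gene (0.00719%) was called lower than in both. The count of such higher genes was 2 to 25 over the 16 alternatives, with 25 without PDGFRa-only replicate 2, and Axin2 stayed among them in 7 of the 16. The deposited RPKM values of Axin2 had the same order, with 5.12 and 4.03 in the double-positive libraries, 2.33 and 1.90 in the PDGFRa-only and 1.27 and 1.09 in the PECAM1-only libraries. An antisense gene on the opposite strand, Gm11670, shares 3.8% of the exon bases of Axin2 and had 4 counts over all libraries.

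Sp5 (ENSMUSG00000075304, chromosome 2, 70474923 to 70477729, plus strand) had 0 counts in all 6 libraries, which allows a level of up to 0.435 to 0.672 CPM depending on the library. No annotated gene overlaps it. Sp8, its nearest relative, had 19 counts in all and was not tested.

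**Figure D3:**
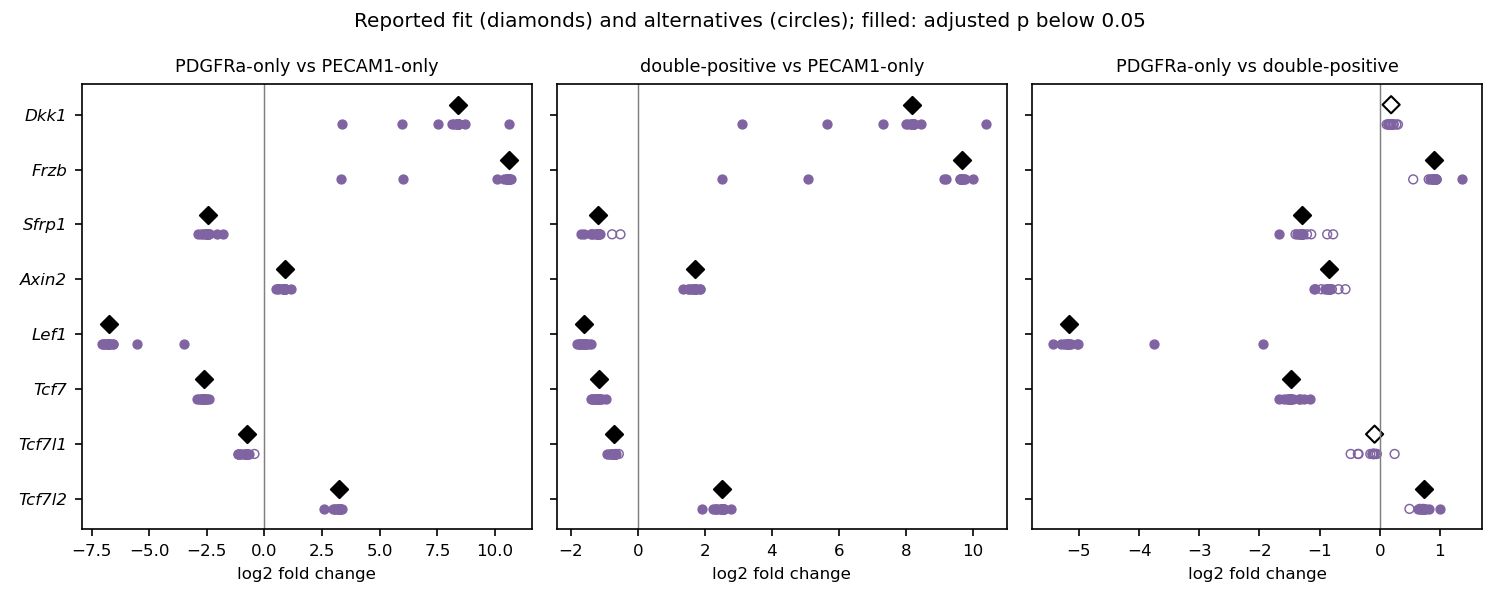
Log2 fold change (horizontal axes) of the 8 tested genes in the 3 comparisons, first-named fraction over the second; diamonds are the reported edgeR fit, circles the 16 alternatives, and filled symbols have an adjusted p below 0.05. The calls of Dkk1, Frzb, Lef1, Tcf7 and Tcf7l2 against the PECAM1-only fraction are filled throughout, and the open circles gather in Sfrp1, Axin2, Tcf7l1 and the comparison of the PDGFRa-only with the double-positive fraction.

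The other genes of the pathway were read from 9 lists with 96 genes in the table, of which 64 were tested. The lists include 4 genes known to be repressed by TCF7L1 in ESCs, which are also markers of naive pluripotent cells. All 4 were called lower in each comparison and are part of every lower count given here. The pooled lower counts therefore do not describe pathway components alone. With PDGFRa-only set against PECAM1-only, 17 were higher and 26 lower, with a median log2 fold change of -0.14 (all genes 0.01); the higher count was 11 to 17 when single libraries were left out (11 without PECAM1-only replicate 1), and the stricter count filter, with 44 genes tested, gave 12 higher and 17 lower. In the double-positive against the PECAM1-only fraction 10 were higher and 16 lower (median -0.11), with 11 to 21 lower when single libraries were left out, 27 lower with library-size scaling and 25 lower with upper-quartile scaling. In the PDGFRa-only against the double-positive fraction 1 was higher and 15 were lower (median -0.09), with 0 to 5 higher when single libraries were left out (5 without PDGFRa-only replicate 2). The background shares of called genes are 59%, 38.2% and 17.6%, as given above. By direction they are 30.1% higher and 28.8% lower, 21.8% higher and 16.4% lower, and 5.94% higher and 11.7% lower. These shares are also the background for the counts of the single lists below.

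Of 19 Wnt ligand genes, 5 had enough counts to be tested. Wnt11, a ligand known mainly for signalling outside the beta-catenin route, had 5.60 and 8.59 CPM in the PDGFRa-only libraries, 3.61 and 5.77 CPM in the double-positive libraries and 1 count in the PECAM1-only fraction, in replicate 1. It was higher by a ratio of 98.1 (17.1 to 3920) in the PDGFRa-only and of 62.4 (10.8 to 2500) in the double-positive fraction (edgeR adjusted p = 3.31e-07 and 7.08e-06). Its fitted log2 fold changes were 6.24 and 5.63, 8.45 and 7.84 without PECAM1-only replicate 1, and 5.45 and 4.84 without replicate 2. Wnt4 was higher in the PDGFRa-only than in the PECAM1-only fraction (log2 fold change 2.41 ± 0.63, adjusted p = 0.00249), which was 1.88 (adjusted p = 0.0548) without PECAM1-only replicate 1 and 3.24 without replicate 2. Wnt5a was lower in the double-positive than in the PECAM1-only fraction (-1.80 ± 0.62, adjusted p = 0.0269), on 7 and 26 counts. That call was lost without either library of both fractions (adjusted p = 0.112 to 0.229) and with DESeq2 (0.152). Wnt3a had 1 count, Wnt1 0 and Wnt3 13 over all libraries. Of the genes for Wnt export, neither Porcn nor Wls passed in the reported edgeR fit or with DESeq2, but the result for Porcn turned on the setting. For PDGFRa-only over double-positive Porcn had a log2 fold change of 0.79 (adjusted p = 0.0962), and it passed with no count filter (0.00565), with the replicate number as a block (0.00645), without double-positive replicate 1 (0.0416) and without PDGFRa-only replicate 2 (0.0137). For double-positive over PECAM1-only it had -0.62 (adjusted p = 0.134), and it passed with library-size scaling (0.0438), no count filter (0.0356), the block (0.0154), without double-positive replicate 1 (0.0472) and without PECAM1-only replicate 2 (0.0367).

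Among Frizzleds and coreceptors, 13 of 17 were tested, and 4 rose and 6 fell in the PDGFRa-only relative to the PECAM1-only fraction. Fzd5 had 28.7 and 25.2 CPM, 76.4 and 70.8 CPM, and 158.5 and 162 CPM in the PDGFRa-only, double-positive and PECAM1-only libraries (log2 fold change -2.58 ± 0.18 between the outer fractions, edgeR adjusted p = 7.55e-11). Fzd3 fell likewise (-2.94 ± 0.40, adjusted p = 1.93e-06), and Fzd10 had 0 counts in the PDGFRa-only fraction, where it was at least 11.1-fold lower. Fzd7, another Frizzled gene, had 68.0 ± 11.0, 78.9 ± 6.66 and 78.0 ± 19.0 CPM and a log2 fold change of -0.19 (adjusted p = 0.400; -0.479 and 0.0323 with library-size scaling). Lrp5, a coreceptor that DKK1 blocks, rose from 21.8 and 27.4 CPM in the PECAM1-only to 59.55 and 75.02 CPM in the PDGFRa-only libraries (1.46 ± 0.20, adjusted p = 2.25e-06).

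R-spondins raise Wnt signalling through LGR receptors, which keep the ligases RNF43 and ZNRF3 from removing Frizzleds. Of this list 4 of 9 genes were tested, with 1 higher and 2 lower in the PDGFRa-only than in the PECAM1-only fraction. Rnf43 had 8.73 and 10.7 CPM in the PDGFRa-only, 3.92 and 6.865 CPM in the double-positive and 0.290 and 0.626 CPM in the PECAM1-only libraries (log2 fold change 4.375 ± 0.51, edgeR adjusted p = 2.35e-07; 4.98 without PECAM1-only replicate 2). Znrf3 had 38.6 ± 7.115, 41.7 ± 5.48 and 48.95 ± 7.97 CPM in the same order (-0.35, adjusted p = 0.136), and was called lower with library-size scaling (-0.635, adjusted p = 0.00904), upper-quartile scaling (-0.555, 0.0218) and without PDGFRa-only replicate 1 (-0.527, 0.0341). Rspo1 had 0 counts in the PDGFRa-only fraction and was at least 7.80-fold lower there than in the PECAM1-only fraction. Lgr4 fell by 0.88 on the log2 scale (adjusted p = 0.00101), a call lost without PECAM1-only replicate 1 (adjusted p = 0.0522).

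In the complex that degrades beta-catenin and its regulators all 13 genes were tested, with 5 higher and 3 lower in the PDGFRa-only than in the PECAM1-only fraction and 3 higher in the double-positive fraction. The 3 higher in both were Tnks, a tankyrase that marks axin for removal (log2 fold changes 1.125 ± 0.16 and 0.91 ± 0.16, edgeR adjusted p = 4.38e-06 and 0.000113), Dvl3 (1.33 ± 0.20 and 1.00 ± 0.20) and the kinase gene Gsk3b (1.04 ± 0.16 and 0.82 ± 0.16). Csnk1a1 was lower in the PDGFRa-only fraction (-0.76 ± 0.16, adjusted p = 0.000298). None of the 13 passed between the PDGFRa-only and double-positive fractions, by edgeR or by DESeq2; 3 of them had an unadjusted p below 0.05. Without PDGFRa-only replicate 2, edgeR called Csnk1a1 lower (-0.498, adjusted p = 0.026) and Dvl2 higher (0.687, adjusted p = 0.0249) in the PDGFRa-only fraction. Axin1, the constitutive counterpart of Axin2, had 31.7 ± 6.25, 34.04 ± 4.01 and 36.0 ± 2.11 CPM (adjusted p = 0.477 between the outer fractions; 0.0415 from the deposited RPKM values with limma, with a log2 fold change of -0.605).

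Ctnnb1, the gene of beta-catenin itself, had 488 ± 53.6, 503 ± 0.237 and 565 ± 12.2 CPM in the PDGFRa-only, double-positive and PECAM1-only fractions (log2 fold change -0.21, edgeR adjusted p = 0.252 between the outer fractions). It was called lower there with library-size scaling (-0.50, adjusted p = 0.00735), with upper-quartile scaling (-0.42, 0.0215) and from the deposited RPKM values with limma (-0.51, 0.0437), and lower in the double-positive than in the PECAM1-only fraction with library-size scaling (-0.38, 0.0464). Of 13 genes for beta-catenin and its nuclear partners, 3 rose and 5 fell in the PDGFRa-only relative to the PECAM1-only fraction. Bcl9l, a coactivator that binds beta-catenin, rose (1.79 ± 0.19, adjusted p = 9.54e-08), and so did Ctnnbip1, which keeps beta-catenin from TCF factors (1.84 ± 0.25, adjusted p = 1.96e-06). The corepressor genes Tle4 (-3.37 ± 0.30, adjusted p = 2.02e-07) and Ctbp2 (-2.35 ± 0.20, adjusted p = 2.10e-09) fell. Tle4 had 22.2 and 17.5 CPM in the PDGFRa-only libraries, 115 and 70.2 CPM in the double-positive and 261 and 144 CPM in the PECAM1-only libraries, while Tle3 had 74.4, 71.7 and 78.8 CPM (adjusted p = 0.723 between the outer fractions).

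Other Wnt targets went in both directions. Of 9 listed, 6 were tested, and 2 rose and 3 fell in the PDGFRa-only relative to the PECAM1-only fraction. The feedback inhibitor genes Apcdd1 (log2 fold change 1.58 ± 0.47, edgeR adjusted p = 0.00691) and Nkd1 (1.64 ± 0.52, adjusted p = 0.0102) were higher, but both rest on few counts: without PECAM1-only replicate 1 they were 1.14 (adjusted p = 0.102) and 1.03 (0.147), without replicate 2 of that fraction they were 2.23 and 2.69, and Nkd1 was also lost without PDGFRa-only replicate 1 (0.0848). Ccnd1, the gene of cyclin D1, had 1.197 ± 0.840, 20.02 ± 2.80 and 62.9 ± 14.7 CPM in the PDGFRa-only, double-positive and PECAM1-only fractions (-5.82 ± 0.35, adjusted p = 1.01e-11; -6.64 and -5.11 without PDGFRa-only replicates 1 and 2). Tnfrsf19 fell by 3.996 on the log2 scale (adjusted p = 4.49e-09). Myc had 10.2 ± 3.33, 9.55 ± 3.36 and 8.755 ± 1.99 CPM (adjusted p = 0.634). The mesoderm gene T, a classical target of Wnt in the embryo, had 2 counts over all libraries.

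The 4 listed genes known to be repressed by TCF7L1 in ESCs, Nanog, Klf2, Esrrb and Tfcp2l1, were highest in the PECAM1-only fraction. All 4 were called lower in the PDGFRa-only than in the PECAM1-only fraction (median log2 fold change -3.98) and in each of the other 2 comparisons (-1.74 for double-positive over PECAM1-only and -2.24 for PDGFRa-only over double-positive), and these counts stayed at 4 when any library was left out. Esrrb had 26.0 and 16.0 CPM, 64.65 and 47.9 CPM, and 145 and 170 CPM in the PDGFRa-only, double-positive and PECAM1-only libraries. Tfcp2l1 had 81.04 and 89.8 CPM, 141.5 and 140.3 CPM, and 225 and 228 CPM in the same order. These genes are also markers of naive pluripotent cells, and Nanog is among the pluripotency genes whose levels are given above. The part of this in the result was not tested.

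**Figure D4:**
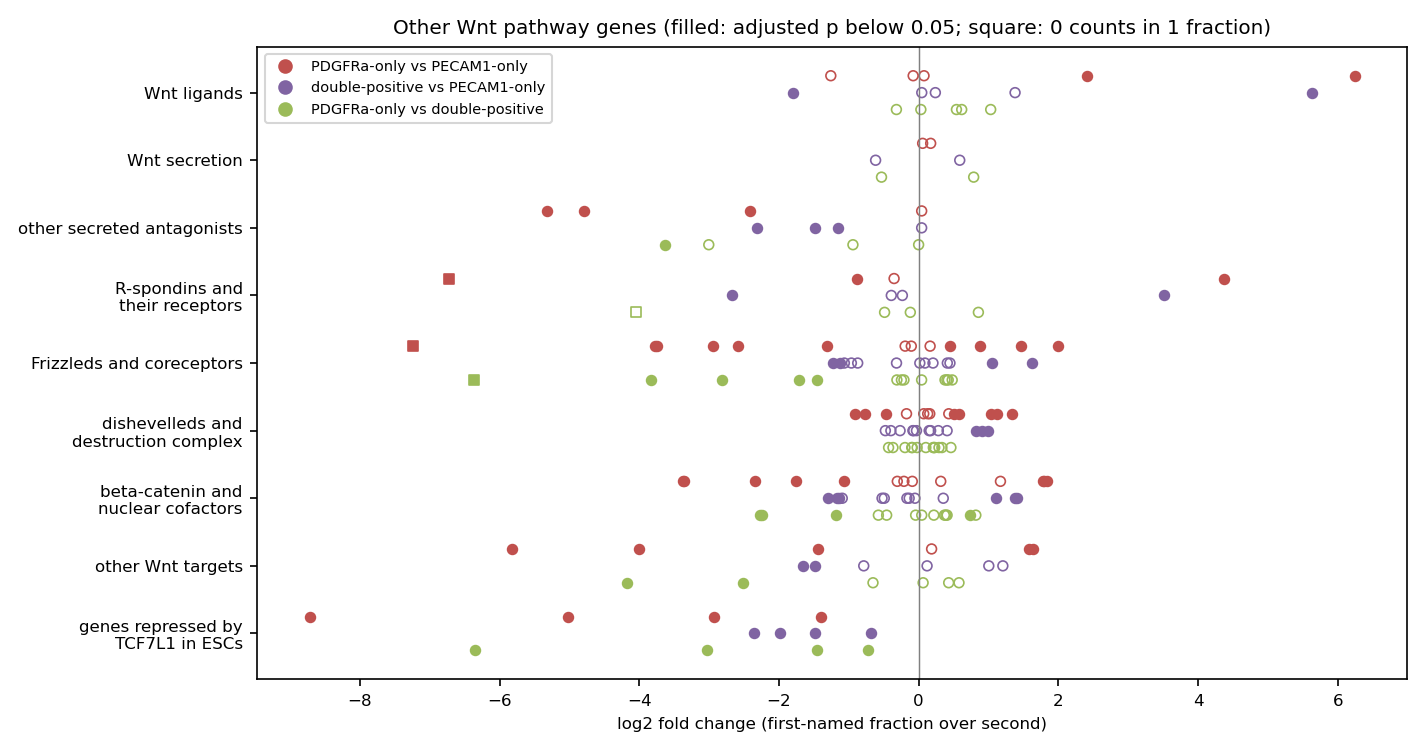
Log2 fold change (horizontal axis) of the 64 tested genes of the 9 pathway lists (rows) in the 3 comparisons (colours); filled symbols have an adjusted p below 0.05 and squares mark genes with 0 counts in 1 fraction, whose fitted value is no bound. Filled symbols lie on both sides of 0 in the receptor, degradation complex and cofactor rows, and on the left alone in the rows of other secreted antagonists and of genes repressed by TCF7L1.

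Profiles most like those of the 8 genes were taken from 10416 tested genes of at least 5 CPM on average over the libraries, by the distance between log2 levels over the 6 libraries after centring each gene. The closest to Dkk1 were Glipr1 (distance 0.337) and Fam46a (0.348), and the closest to Frzb was Foxa2 (0.482), a transcription factor gene of endoderm. For Lef1 the closest was the sort marker Pecam1 itself (0.310), with 1.54, 49.2 and 154 CPM in the PDGFRa-only, double-positive and PECAM1-only fractions. Tcf7 was closest to Mex3a (0.176), Tcf7l2 to Plekha6 (0.230), Tcf7l1 to Taf6 (0.118) and Sfrp1 to Nfatc4 (0.376). Axin2 had the most distant first neighbour of the 8, Map3k6 (0.492), with 4.76, 8.53 and 3.02 CPM in the PDGFRa-only, double-positive and PECAM1-only fractions.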

How the data were processed

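RNA of 6 libraries (3 fractions, 2 each) was sequenced by the submitters. The deposited count table holds whole-number read counts per gene. The submitters' processing notes name cutadapt 1.2.1, Bowtie2 2.1.0, TopHat2 2.0.8b, HTSeq 0.5.4p3 and build GRCm38; the annotation release and the strand setting are not given in the sources used here. The deposited RPKM values cover 16105 genes, share 1 highest value over 6 columns and give non-zero values to genes without counts, so they served only as an alternative.

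Genes were filtered with filterByExpr (minimum count 10), scaled by TMM and fitted over all 6 libraries with edgeR 4.0.16 (R 4.3.3; quasi-likelihood, robust, 3 residual degrees of freedom, two-sided, Benjamini-Hochberg over 13909 genes, threshold 0.05). The biological coefficient of variation was 13.5%. Each SE is the absolute log2 fold change over the root of F. Total counts ran from 4809661 to 7273669. Exon lengths and positions came from GENCODE M21, matched to 36639 of 38561 genes, and promoters from RefSeq. The 16 alternatives included DESeq2 1.42.0 and limma 3.58.1 on log2(RPKM + 1). The text names all 10 genes, up to 4 genes per pathway list with the smallest p among those past the threshold, and nearest profiles; others named with values (Dkk3, Cer1, Wnt1, Wnt3, Wnt3a, Porcn, Wls, Fzd7, Znrf3, Axin1, Ctnnb1, Tle3, Dvl2, Myc, T, Sp8 and marker genes) were chosen after their values were seen. The genes and lists were chosen with earlier results of these data known.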

Additional observations from a re-analysis of the deposited data

How the results depend on the processing

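Of 128 values per comparison (8 genes under 16 alternatives), 119 kept direction and side of the threshold against PECAM1-only in each of the PDGFRa-only and double-positive comparisons, and 107 did for PDGFRa-only over double-positive, where 20 lost the call and 1 changed sign. For that last comparison the deposited RPKM values with limma called 785 genes and 2 of the 8 genes described, and leaving out single libraries gave 1326 to 2945 genes and 3 to 5 of the 8, with Tcf7l1 between -0.483 and 0.247; the cause was not tested. Leaving out single libraries gave 6827 to 8156 genes and 6 to 8 of the 8 for PDGFRa-only against PECAM1-only, and 3650 to 6252 genes and 7 of the 8 for double-positive against PECAM1-only. Where a fraction was left with 1 library, that library was assumed to vary like the others. With the replicate number as a block, 8397, 5644 and 2834 genes were called, and 8, 8 and 6 of the 8, with no call of the 8 changed. Deviations of same-numbered libraries correlated at -0.0289 (PDGFRa-only and PECAM1-only), 0.132 (PDGFRa-only and double-positive) and 0.183 (PECAM1-only and double-positive). The values 0.132 and 0.183 are above the limit of 0.1 set for a pairing. The reported fit has no block because the labels do not say what the numbers mark, so a pairing remains possible. The median log2 fold change of all genes was 0.00595, -0.00818 and -4.73e-05 with TMM, -0.280, -0.220 and -0.0736 with library-size scaling and -0.201, -0.175 and -0.0395 with upper-quartile scaling, and no sign changed among the 8. The share of calls that were higher was 51.1%, 57.0% and 33.7% with TMM, 37.9%, 39.9% and 22% with library-size scaling and 41.5%, 43.3% and 26.4% with upper-quartile scaling, and 45.5% for double-positive against PECAM1-only from RPKM. The count of genes called higher in the double-positive fraction than in both others under alternatives was added after seeing the data. Sfrp5 and Sp5 lie below what this depth resolves.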
